A study of Mus musculus with 3 samples.

Results

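The 10 genes described here encode the machinery that carries a mammalian cell through G1, the interval before DNA replication: the D cyclins Ccnd1, Ccnd2 and Ccnd3, the E cyclins Ccne1 and Ccne2, the kinases Cdk4 and Cdk6, the kinase inhibitors Cdkn1b and Cdkn2d, and the pocket protein gene Rb1. They were taken by gene name from a count table of 17857 genes, and all 10 were present and passed the filter on low counts. The samples were cells from lymph nodes that drained B16F10 tumours in C57BL/6J mice, B16F10 being a melanoma line of that strain. The tumours had been placed in both thighs, had grown for 14 days and were left untreated, and their draining nodes were pooled. Bulk RNA was sequenced from sorted cells that lacked CD11c and carried both c-kit and Ly6C, and how many mice made up a pool is not given in the sources used here. The 3 libraries form 1 group with no control population, so the comparisons below are between genes, against fixed levels, and between libraries.

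D cyclins are made in response to growth signals and bind CDK4 and CDK6. The resulting kinases phosphorylate the retinoblastoma protein, which then frees E2F transcription factors. E2F activity raises cyclin E, whose kinase CDK2 completes the phosphorylation and starts DNA replication. The INK4 inhibitors, among them the product of Cdkn2d, bind CDK4 and CDK6. The CIP/KIP inhibitors, among them p27, the product of Cdkn1b, act mainly on CDK2 and its cyclins. Resting T and B lymphocytes are known for high p27, and lymphocytes use mainly cyclins D2 and D3.

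The libraries held 9077195, 13885509 and 13861430 counts in replicates 1, 2 and 3. Levels are read counts scaled to library size (CPM). Levels of different genes are compared as CPM per kilobase of the deposited gene length unless another scaling is named. Of the sort markers, Kit had 9.83, 5.35 and 5.92 CPM. The Ly6C genes Ly6c1 and Ly6c2 had 19.1, 4.28 and 17.6 CPM and 11.5, 121 and 41.2 CPM, and so varied widely between libraries. Itgax, the gene of the excluded CD11c, had 26.9, 43.2 and 24.0 CPM. Of the cell type lists examined, T cell markers had the highest median per kilobase. All 10 exceeded 50 CPM by edgeR's test (background 19.9% of genes tested), with a summed level of 3754, 4658 and 4668 CPM. Stem and progenitor markers summed to 97.9, 191 and 115 CPM over 6 genes, of which Myb alone gave 75.3, 172 and 102 CPM, with Cd34 at 1.06 CPM in replicate 1, no count in replicate 2 and 0.152 CPM in replicate 3. Which of the sorted cells held the transcripts described below was not tested, and in bulk samples fewer cells of a type and less RNA per cell cannot be told apart.

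Per kilobase the members fell in an order that was nearly the same in every library. Ccnd2 stood first, followed by Cdkn1b, Ccnd3, Cdk4, Cdkn2d, Rb1, Cdk6, Ccne1, Ccnd1 and Ccne2, and the sole exchange was that Cdkn2d stood above Cdk4 in replicate 3. The ranges over the 3 libraries overlapped for the neighbours Ccnd2 and Cdkn1b, Cdk4 and Cdkn2d, Cdkn2d and Rb1, Cdk6 and Ccne1, and Ccnd1 and Ccne2, so those neighbours were not separated by their spread. They did not overlap between Cdkn1b and Ccnd3, Ccnd3 and Cdk4, Rb1 and Cdk6, or Ccne1 and Ccnd1. The order rests on the gene lengths used. With the length of all annotated exons in GENCODE M21 in place of the deposited length, an alternative added after the data had been seen, Ccnd3 moved to rank 6 (14.0 ± 2.30 CPM per kilobase) and Cdk6 to rank 9 (2.10 ± 0.727), while Ccnd2 and Cdkn1b kept ranks 1 and 2.

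**Figure D1:**
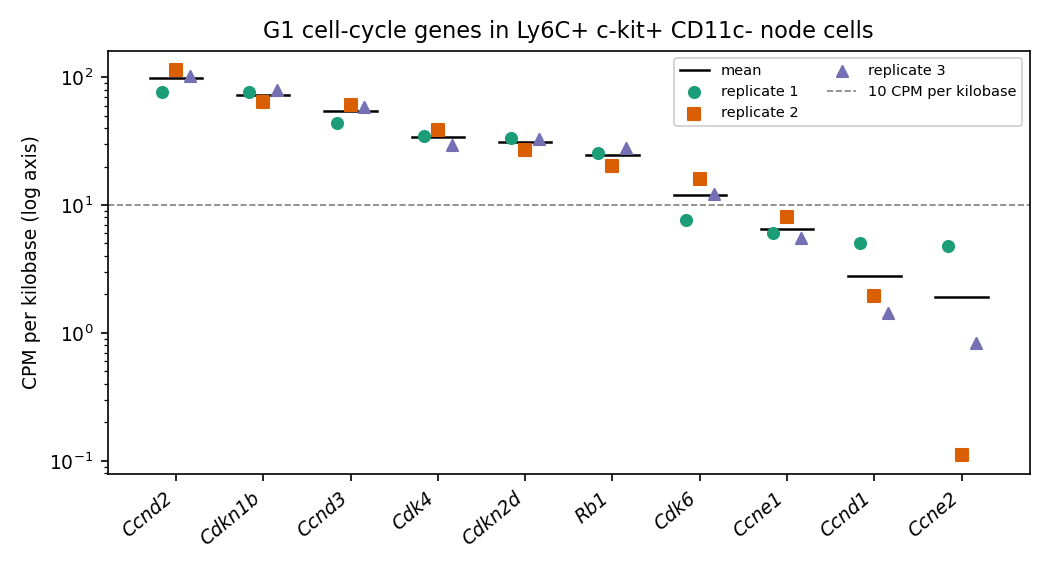
Level of each of the 10 genes in CPM per kilobase of deposited gene length (log axis), 1 point per library and a line at the mean of the 3 libraries. The points run from 114 for Ccnd2 to 0.111 for Ccne2, both in replicate 2, and the libraries lie close together for all but Cdk6, Ccnd1 and Ccne2.

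Against fixed levels, edgeR's quasi-likelihood test placed all 10 members above 1 CPM (background 68.6% of the 15490 genes tested), 4 above 50 CPM (background 19.9%) and 4 below 50 CPM (background 66.7%). Per kilobase, 6 members lay above 10 CPM per kilobase (background 30.9%) and 2 below it (background 37.5%). The median member was read at 42.9 CPM and 27.8 CPM per kilobase, beside 12.4 CPM and 5.50 CPM per kilobase for the median of all genes tested. The count above 1 CPM was 9 without replicate 1, with limma, with robust empirical Bayes and with edgeR's own expression filter.

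Ccnd2 was the most abundant of these genes. Ccnd2 (Entrez gene 12444, chr6:127125162-127152188, mm10, minus strand) had 4215, 9204 and 7792 counts in replicates 1, 2 and 3, which is 445, 656 and 592 CPM. Replicate 1 was lowest and replicate 2 highest, a 1.47-fold range. The mean of 564 ± 108 CPM (SD, n = 3) is the 99.0th percentile of the genes tested, and per kilobase it was 97.8 ± 18.7, the 97.4th percentile. It lay above 50 CPM by 3.50 on the log2 scale (edgeR adjusted p = 2.53e-07) and above 10 CPM per kilobase by 3.29 (edgeR adjusted p = 1.73e-07).

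Ccnd3 (Entrez gene 12445, chr17:47505051-47599689, plus strand) followed at 99.9, 137 and 132 CPM, again lowest in replicate 1. Its mean was 123 ± 20.2 CPM, or 54.4 ± 8.94 CPM per kilobase (n = 3), above both levels (edgeR adjusted p = 1.36e-04 against 50 CPM and 7.37e-07 against 10 CPM per kilobase). Ccnd1 (Entrez gene 12443, chr7:144929931-144939831, minus strand) was read at 19.2, 7.35 and 5.39 CPM, with replicate 1 above the others. Its mean of 10.7 ± 7.49 CPM lay below 50 CPM (edgeR adjusted p = 0.00275), and its 2.81 ± 1.97 CPM per kilobase below 10 (edgeR adjusted p = 0.00735).

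The D cyclins share a short stretch near the start of the protein, the LxCxE motif, through which they dock on the pocket of the retinoblastoma protein. The opening codons of each coding sequence are shown because the most and the least abundant D cyclin both carry that motif. They come from GENCODE M21 (GRCm38, the assembly that mm10 represents), 5′ to 3′ on the coding strand, with the codons of LxCxE in capitals.
Ccnd1, chr7:144939658-144939693, minus strand: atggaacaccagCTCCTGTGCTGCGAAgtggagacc
Ccnd2, chr6:127150738-127150773, minus strand: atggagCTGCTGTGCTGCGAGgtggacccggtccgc
Ccnd3, chr17:47593655-47593690, plus strand: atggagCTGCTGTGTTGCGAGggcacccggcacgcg
Bases were compared position by position from the start codon, with no alignment. Ccnd2 and Ccnd3 had 25 of these 36 bases in common, Ccnd1 and Ccnd2 14, and Ccnd1 and Ccnd3 13. The motif began at codon 5 in Ccnd1 and at codon 3 in Ccnd2 and Ccnd3. The counts with Ccnd1 therefore set its motif out of register and do not measure how alike the motifs are. Among 21562 genes with a complete coding sequence in that annotation, 14 (0.0649%) had the motif within their opening 12 codons.

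The division of the D cyclin level among the 3 genes was steady. Per kilobase, Ccnd2 made up 61.1, 64.5 and 63.2% of the summed D cyclin level in replicates 1, 2 and 3, and Ccnd3 34.9, 34.4 and 35.9%. Ccnd1 made up 4.01, 1.10 and 0.875%. Within a library, Ccnd2 stood above Ccnd3 by 0.80, 0.90 and 0.81 on the log2 scale of CPM per kilobase (mean 0.84 ± 0.06), a 1.79-fold difference. With GENCODE M21 exon lengths, which are 1.63 times the deposited length for Ccnd2 and 3.88 times for Ccnd3, that mean difference was 2.09, and the share of Ccnd3 was 18.1, 18.0 and 19.0%. Ccnd1 stood below Ccnd3, with log2 differences of -3.09, -4.88 and -5.24 (mean -4.40 ± 1.15), and below Ccnd2, with -3.89, -5.78 and -6.05 (mean -5.24 ± 1.17). The gap was narrowest in replicate 1 in both cases. Each of the 8 pairs compared gave an exact sign-flip permutation p = 0.25 (two-sided), below which 3 libraries cannot go, and the adjusted value over the 8 pairs was also 0.25.

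**Figure D2:**
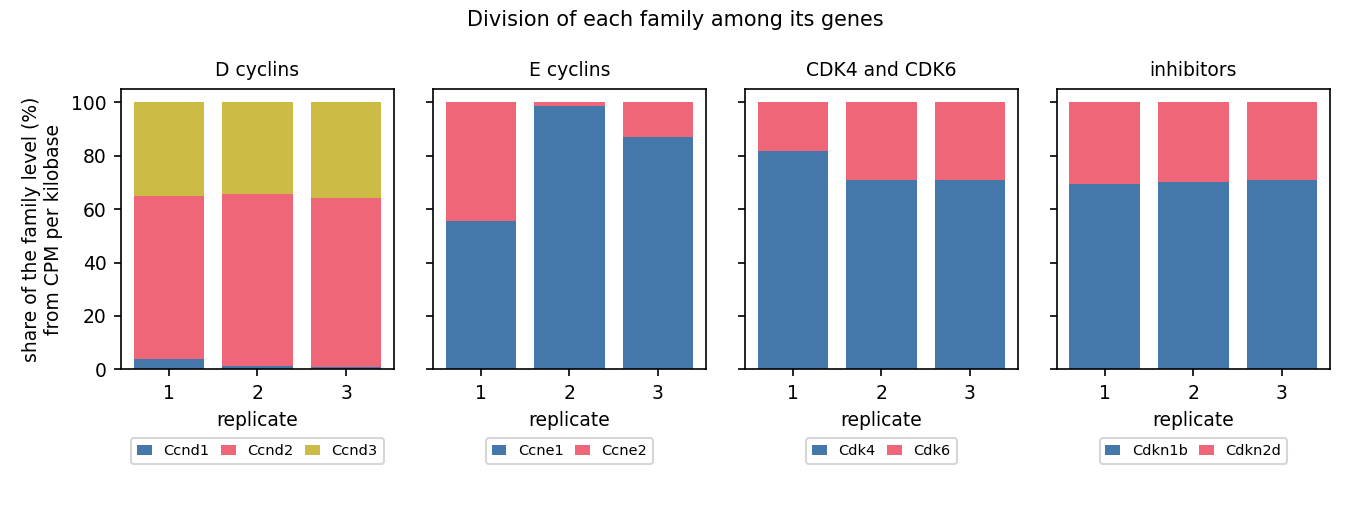
Share of each family's summed level (CPM per kilobase, in percent) taken by each of its genes, 1 stacked bar per library. Ccnd2 and Ccnd3 divide the D cyclin level in nearly the same way in all 3 libraries, while Ccne2 takes 44.4% of the E cyclin level in replicate 1, 1.36% in replicate 2 and 12.9% in replicate 3.

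By the rule for genes of like pattern, the 3 genes nearest to Ccnd2 over the 3 libraries were Setd2, a histone methyltransferase gene, Crebbp, a histone acetyltransferase gene, and Lrrfip1. Their Euclidean distances in log2(CPM + 0.5) were 0.0864, 0.0916 and 0.133. Setd2 had 455, 631 and 616 CPM. With 3 libraries and 15490 genes, such near matches describe the level and carry no test.

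Both E cyclins were far lower than Ccnd2 and Ccnd3, whereas Ccne1 stood above Ccnd1 per kilobase in every library. Ccne1 (Entrez gene 12447, chr7:38097984-38107490, minus strand) was read at 11.7, 15.8 and 10.9 CPM, an even level with a 1.45-fold range. Its mean of 12.8 ± 2.61 CPM lay below 50 CPM (edgeR adjusted p = 4.68e-04). Per kilobase its 6.54 ± 1.34 lay below 10 (log2 -0.61, edgeR adjusted p = 0.0451). That call ended without replicate 1 (edgeR adjusted p = 0.0743), without replicate 3 (0.282), with library totals alone (0.0520) and with mitochondrial genes left out (0.121), and over all alternatives the adjusted p ran between 0.00609 and 0.282.

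Ccne2 (Entrez gene 12448, chr4:11190433-11204779, plus strand) was the most uneven of the 10. It had 146, 5 and 35 counts, or 15.4, 0.357 and 2.66 CPM, in replicates 1, 2 and 3. The exact 95% Poisson intervals were 13.0 to 18.1, 0.116 to 0.832 and 1.85 to 3.70 CPM, which do not overlap, and they cover counting error only. Replicate 1 stood 43.3-fold above replicate 2, with replicate 3 between them. In edgeR's test Ccne2 lay above 1 CPM (adjusted p = 0.00289) and below 50 CPM (0.0240), and it was not separated from 10 CPM per kilobase (0.0515). Without replicate 1 it was no longer separated from 1 CPM (edgeR adjusted p = 0.568), nor was it with limma (adjusted p = 0.274), and with robust empirical Bayes it was separated from neither 1 CPM (edgeR adjusted p = 0.0839) nor 50 CPM (0.153). Against 10 CPM per kilobase it did lie below with DESeq2 (adjusted p = 0.00545), limma (1.32e-04), and in edgeR without replicate 1 (0.0132), without replicate 2 (0.00140), with no filter on counts (0.0273) and with GENCODE M21 exon lengths (0.0432).

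Both E cyclins together were read at 10.8, 8.17 and 6.38 CPM per kilobase, beside 126, 176 and 162 for the 3 D cyclins. The D cyclin sum was thus 11.7, 21.6 and 25.4 times the E cyclin sum in replicates 1, 2 and 3, or 7.12, 14.4 and 16.3 times with GENCODE M21 exon lengths. By deposited length, Ccne2 stood below Ccne1 in every library, with log2 differences of -0.34, -4.96 and -2.56 (mean -2.62 ± 2.31), and in replicate 1 the pair were nearly level. With GENCODE M21 exon lengths Ccne2 took 50.1% of their sum in replicate 1, so their order there depends on the length. The genes nearest to Ccne2 over the 3 libraries were Pla2g2d, a secreted phospholipase gene, at 14.1, 0.214 and 2.81 CPM, Marco, a scavenger receptor gene of macrophages, at 19.1, 0.357 and 2.51 CPM, and Adam22, at 18.3, 0.214 and 2.66 CPM. Their distances were 0.301, 0.310 and 0.354, and the values in replicate 2 rest on a handful of counts.

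Among the kinases, Cdk4 (Entrez gene 12567, chr10:127063535-127067288, plus strand) was read at 46.5, 52.1 and 39.95 CPM and was not separated from 50 CPM (edgeR adjusted p = 0.498). Its 34.3 ± 4.53 CPM per kilobase, the 88.2nd percentile, lay above 10 (edgeR adjusted p = 7.14e-06). The libraries were within 1.30-fold of each other. Cdk6 (Entrez gene 12571, chr5:3341004-3531008, plus strand) was read at 18.9, 39.2 and 30.1 CPM, with replicate 1 lowest and a 2.07-fold range. Its mean of 29.4 ± 10.2 CPM lay below 50 CPM (edgeR adjusted p = 0.0190), a call that ended without replicate 3 (0.0630). Per kilobase its 11.9 ± 4.12 was not separated from 10 (edgeR adjusted p = 0.287). It lay above 10 without replicate 1 (log2 0.46, edgeR adjusted p = 0.0466) and below 10 with the GENCODE M21 exon length, which is 5.66 times the deposited one (log2 -2.24, edgeR adjusted p = 2.81e-04).

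Cdk6 stood below Cdk4 in CPM per kilobase, with log2 differences of -2.15, -1.28 and -1.28 (mean -1.57 ± 0.50). Cdk4 took 81.8, 70.9 and 70.9% of their summed level in replicates 1, 2 and 3. With GENCODE M21 exon lengths the mean difference was -2.80, and Cdk6 took 8.63, 14.9 and 14.9% of the sum. The level of each kinase thus depends on the length it is divided by, while their order did not change under the lengths tried.

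The promoters of these kinases are shown because Cdk4, the more abundant and more even of the pair, is known as a target of MYC, which binds the E box CACGTG. Promoter windows of 300 bases (250 before and 50 after the transcript start, RefSeq, GRCm38.p6) were found for 6 of the 10 members. They are given 5′ to 3′ on the gene's strand with each E box in capitals.
Cdk4, chr10:127063285-127063584, plus strand: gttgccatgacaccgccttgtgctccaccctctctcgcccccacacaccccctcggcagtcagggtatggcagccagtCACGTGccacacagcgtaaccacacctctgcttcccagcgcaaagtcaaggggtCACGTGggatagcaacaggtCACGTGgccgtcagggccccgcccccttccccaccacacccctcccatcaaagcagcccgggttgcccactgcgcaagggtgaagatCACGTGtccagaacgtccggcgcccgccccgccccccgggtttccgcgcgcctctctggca
Cdk6, chr5:3343643-3343942, plus strand: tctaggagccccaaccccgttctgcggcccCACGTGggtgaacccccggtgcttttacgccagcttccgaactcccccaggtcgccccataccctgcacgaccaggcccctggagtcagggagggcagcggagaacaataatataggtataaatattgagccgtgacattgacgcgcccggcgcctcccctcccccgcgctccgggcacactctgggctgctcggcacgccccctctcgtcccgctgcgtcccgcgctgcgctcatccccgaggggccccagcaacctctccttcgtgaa
The Cdk4 window held 4 E boxes and the Cdk6 window 1. The Cdk4 window spans the start of the gene at 127063535, whereas the Cdk6 window lies inside the gene, which starts at 3341004. Bases around that Cdk6 gene start were not among the windows found, so the windows are not alike in position. CACGTG reads the same on both strands and stood in 7.15% of 32851 promoter windows of this length, and 8 windows (0.0244%) held 4 or more. Neither window held the E2F motif TTTNGCGC (or GCGCNAAA on the other strand), found in 1.38% of windows, or the forkhead motif TGTTTAC (or GTAAACA), found in 3.65%. A match describes letters in the window and not a bound site. Myc itself had 42.3, 89.2 and 48.4 CPM, highest in replicate 2, as were Cdk4 and Cdk6 and 32% of all genes tested. Any part of MYC in the levels of Cdk4 and Cdk6 was not tested.

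Of the inhibitors, Cdkn1b (Entrez gene 12576, chr6:134920401-134925525, plus strand), which encodes p27, was read at 182, 152 and 191 CPM, lowest in replicate 2 and within a 1.26-fold range. Its mean of 176 ± 20.4 CPM lay above 50 CPM by 1.81 on the log2 scale (edgeR adjusted p = 9.13e-06), and its 73.0 ± 8.49 CPM per kilobase, the 95.8th percentile, above 10 by 2.87 (edgeR adjusted p = 1.81e-07). Cdkn2d (Entrez gene 12581, chr9:21288459-21291421, minus strand), the gene of the INK4 protein p19, was read at 42.8, 34.2 and 41.9 CPM, also lowest in replicate 2. Cdkn2d was not separated from 50 CPM (edgeR adjusted p = 0.0764), but its 31.2 ± 3.69 CPM per kilobase lay above 10 (edgeR adjusted p = 1.38e-05).

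Cdkn2d stood below Cdkn1b in CPM per kilobase, with log2 differences of -1.16, -1.22 and -1.26 (mean -1.21 ± 0.05). With GENCODE M21 exon lengths that difference was -0.60. Together the inhibitors were read at 110, 90.3 and 113 CPM per kilobase. That is 2.60, 1.66 and 2.69 times the sum of Cdk4 and Cdk6 in replicates 1, 2 and 3. With GENCODE M21 exon lengths it was 4.30, 2.93 and 4.75 times. Of that inhibitor sum Cdkn1b, whose product acts mainly on CDK2, made up 69.3, 70.2 and 70.7% by deposited length. Cdkn2d, the INK4 member, had 33.7, 26.9 and 32.9 CPM per kilobase, below 42.2, 54.6 and 41.8 for Cdk4 and Cdk6 together. With GENCODE M21 exon lengths Cdkn2d had 27.2, 21.75 and 26.6, beside Cdk4 at 14.3, 16.05 and 12.3 and Cdk6 at 1.35, 2.80 and 2.15. All are levels of RNA and not of protein. Cdkn1b alone stood at 7.03, 7.76 and 12.5 times the sum of the E cyclins, whose kinase it inhibits, or 4.54, 5.56 and 8.69 times with those lengths. In each ratio replicate 3 was highest.

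p27 binds cyclins through a motif with the residues RxLFG, and the coding bases around it are shown as the part of the most abundant inhibitor that meets the E cyclins (GENCODE M21, GRCm38, codons of the motif in capitals).
Cdkn1b, chr6:134920998-134921033, plus strand: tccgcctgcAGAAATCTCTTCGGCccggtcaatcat
The motif spanned codons 30 to 34 of 197, and 0.733% of the 21562 genes held it anywhere in their coding sequence.

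The other inhibitors of the INK4 and CIP/KIP families were far lower. Cdkn1a, which encodes p21, was read at 1.16, 1.28 and 0.835 CPM, Cdkn1c, which encodes p57, at 2.22, 0.214 and 1.06 CPM, and Cdkn2c, which encodes p18, at 5.60, 1.64 and 3.57 CPM. Cdkn2b averaged 1.04 ± 0.715 CPM and Cdkn2a 0.487 ± 0.303 CPM. All 5 lay below 50 CPM in edgeR's test (background 66.7% of genes tested), and Cdkn2c alone of the 5 lay above 1 CPM (background 68.6%). Per kilobase, the highest of these 5 in any library, Cdkn2c in replicate 1 with 5.06, stood below the lowest value of Cdkn2d, 26.9 in replicate 2.

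**Figure D3:**
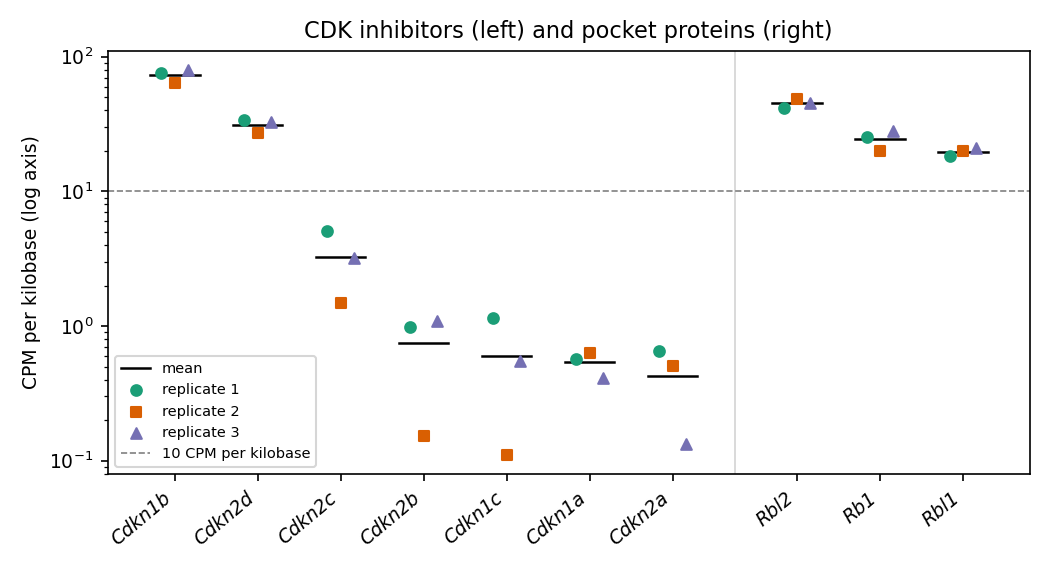
Level in CPM per kilobase (log axis) of the 7 CDK inhibitor genes, left, and of the 3 pocket protein genes, right, 1 point per library and a line at the mean. Cdkn1b and Cdkn2d stand above 26 CPM per kilobase in every library and the other 5 inhibitors below 5.1, whereas the 3 pocket protein genes lie between 18.2 and 48.7.

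Rb1 (Entrez gene 19645, chr14:73192858-73325951, minus strand), the gene of the retinoblastoma protein, was read at 117, 92.6 and 130 CPM, lowest in replicate 2. Its mean of 113 ± 19.1 CPM lay above 50 CPM (edgeR adjusted p = 2.72e-04), and its 24.5 ± 4.12 CPM per kilobase above 10 (edgeR adjusted p = 8.44e-05). Rbl1, which encodes p107, is a relative of Rb1. By deposited length Rb1 stood above Rbl1 by 0.47, 0.00 and 0.43 on the log2 scale of CPM per kilobase (mean 0.30 ± 0.26). The pair were thus level in replicate 2. That mean was 0.07 with GENCODE M21 exon lengths and 0.07 with no scaling to length, so most of it rests on the deposited lengths. Rb1 stood below Rbl2, which encodes p130, the pocket protein known for resting cells. Those log2 differences were -0.71, -1.28 and -0.68 (mean -0.89 ± 0.34), with a mean of -0.64 by GENCODE M21 exon lengths. Rbl2 was even, at 203, 238 and 220 CPM.

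Of the E2F and DP factors and the other pocket proteins, 3 of 12 lay above 10 CPM per kilobase in edgeR's test (Rbl1, Rbl2 and E2f4), 4 lay below it (E2f1, E2f3, E2f5 and E2f7) and 5 were not separated from it, shares near the 30.9% above and 37.5% below among all genes tested. E2f4, a factor that represses with the pocket proteins in resting cells, averaged 53.1 ± 5.20 CPM per kilobase, the activator E2f1 1.48 ± 0.334, and E2f7, the lowest of the 12, 0.866 ± 0.783. Cdk2, the partner of the E cyclins, was read at 24.8, 15.5 and 28.8 CPM and was not separated from 10 CPM per kilobase. Of the 6 other kinases and activators of G1 and S phase, Cdk2 included, Ccnh was highest per kilobase and alone lay above that level. Ccnh, the cyclin of the CDK-activating kinase, averaged 15.7 ± 1.46 CPM per kilobase. Cdk7, its kinase, was lowest (4.93 ± 0.936) and lay below that level with Cdc25a. The order of Ccnh and Cdk7 rests on their deposited lengths, 1976 and 7598 bases. With no scaling to length, Ccnh averaged 31.1 CPM and Cdk7 37.5 CPM. Among genes of the ubiquitin ligases that degrade G1 cyclins and p27, 4 of 8 lay above 10 CPM per kilobase (Skp1a, Cul1, Fbxw7 and Ambra1) and 3 below it (Skp2, Fbxo4 and Fbxo31). Skp1a, an adaptor subunit, averaged 88.4 ± 15.5 CPM per kilobase, and Skp2, which recognises p27, 1.76 ± 0.406.

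Among all genes tested, 30.9% lay above 10 CPM per kilobase and 37.5% below it. All 8 quiescence-linked genes lay above that level in edgeR's test, with a median of 83.8, from Slfn2 (264 ± 65.4) to Tob1 (15.9 ± 3.41). Of 15 genes that E2F drives for S phase, 7 lay above and 4 below that level. Mcm6, a subunit of the replicative helicase, was highest of them (38.6 ± 6.16). Of 10 mitosis genes, Mki67 alone lay above and 5 lay below. Mki67 was uneven, at 100, 10.75 and 17.2 CPM per kilobase in replicates 1, 2 and 3. Bub1, a spindle checkpoint kinase gene, was lowest of the mitosis genes (0.772 ± 0.895).

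The libraries divided the members into an even set and an uneven one. The highest library exceeded the lowest at least 2-fold for 3 members, Ccne2 (43.3-fold), Ccnd1 (3.57-fold) and Cdk6 (2.07-fold), beside 44% of all genes tested, and for the other 7 the range was between 1.25-fold (Cdkn2d) and 1.47-fold (Ccnd2). Without replicate 1, 1 member remained at 2-fold or more (Ccne2, 7.51-fold), with Ccnd1 at 1.35-fold and Cdk6 at 1.29-fold. Replicate 1 was highest for 3 members, Ccnd1, Ccne2 and Cdkn2d (background 45.2% of genes), replicate 2 for 5, Ccnd2, Ccnd3, Ccne1, Cdk4 and Cdk6 (background 32%), and replicate 3 for Cdkn1b and Rb1 (background 22.8%).

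Replicate 1 also had the most counts of mitosis genes. All 10 of them were highest there, with a summed level of 1309, 156 and 266 CPM in replicates 1, 2 and 3, and Mki67, a marker of cycling cells, was read at 1009, 108 and 173 CPM. Of the S phase genes, 12 of 15 were highest in replicate 1, as were 45.2% of all genes tested. Ccna2, the cyclin that follows the E cyclins, was read at 45.3, 3.71 and 7.06 CPM, in the same order of libraries as Ccne2. Erythroid markers, all 7 highest in replicate 1, summed to 4285, 64.6 and 308 CPM, and macrophage markers, likewise all 7, to 924, 94.0 and 215 CPM. B cell markers, again all 7 highest there, summed to 398, 151 and 213 CPM, and mitochondrial genes took 17.8, 6.22 and 13.1% of the counts, in that same order of libraries. Ccnd1 had another order, with 7.35 CPM in replicate 2 and 5.39 CPM in replicate 3. Type 1 dendritic cell markers, 4 of 5 highest in replicate 1, had that order in their sums of 204, 148 and 110 CPM. Melanoma markers, all 5 highest in replicate 1, summed to only 6.76, 0.57 and 2.73 CPM. Monocyte markers summed to 602, 783 and 315 CPM. Neutrophil markers, all 6 highest in replicate 3 (background 22.8% of genes), summed to 190, 68.5 and 710 CPM. In replicate 2 the erythroid marker Epor and the macrophage marker Vsig4 had no count. Counts over olfactory receptor genes, which leukocytes rarely use, averaged 0.249, 0.0207 and 0.0495 CPM per kilobase, also highest in replicate 1, and Ccne2 stood at 19.2, 5.34 and 16.7 times that level and Ccnd1 at 20.3, 93.3 and 28.7 times. The part of these cells, of the mitochondrial share or of that background in the levels of Ccne2 and Ccnd1 was not tested.

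NK cell markers moved the other way, with sums of 64.6, 518 and 218 CPM. All 6 were highest in replicate 2 (background 32% of genes) and lowest in replicate 1 (background 35.2%). Cdk6 had that same order of libraries, as did Ccnd2 and Ccnd3, and T cell markers, whose sum was lowest in replicate 1, were closer to even. Their part in the levels of these genes was not tested.

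**Figure D4:**
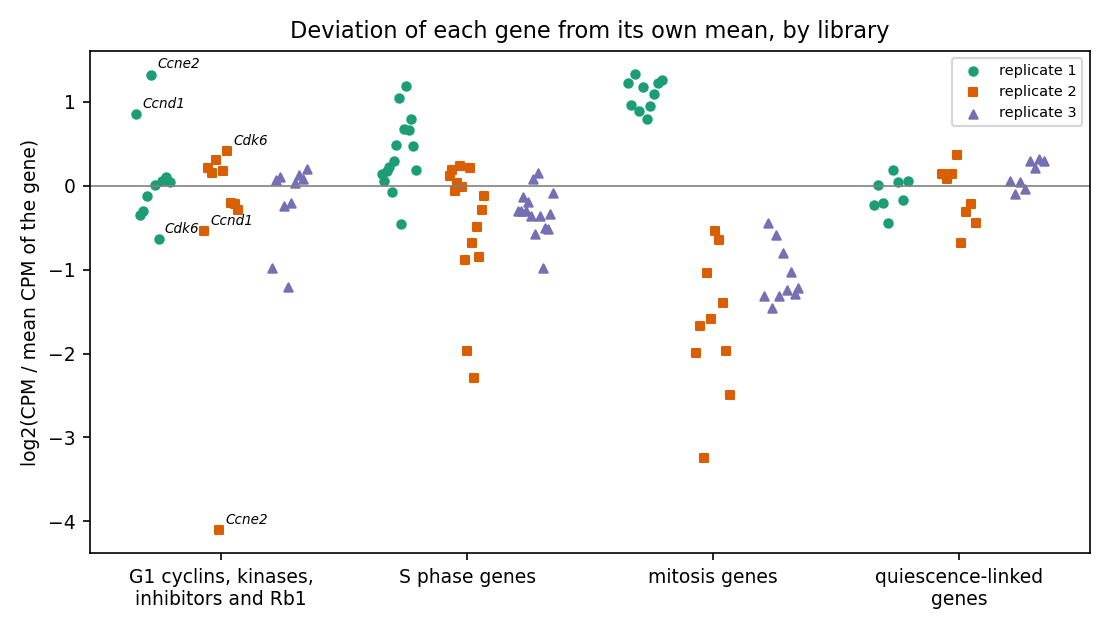
Deviation of each gene from its own mean over the 3 libraries, as log2(CPM / mean CPM), for the 10 genes described here and for S phase, mitosis and quiescence-linked genes, 1 point per gene and library. All 10 mitosis genes lie above their mean in replicate 1, as do Ccne2 and Ccnd1, while Cdk6 lies below its mean there, and most of the other members stay near 0.

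For 7 of the 10 members, other annotated genes on the opposite strand share exon bases in GENCODE M21, and whether reads were counted by strand is not given in the sources used here. Ccne2 shares 609 bases with Ints8, which had 67.0, 86.5 and 95.1 CPM. Any part of Ints8 reads in the counts of Ccne2 was not tested. Cdk4 shares 641 bases with Tspan31 (15.96, 15.2 and 15.4 CPM) and Ccnd3 361 bases with Bysl (25.8, 45.6 and 28.7 CPM). Rb1 shares 488 bases with Rcbtb2 and 408 with Lpar6, a receptor gene inside an intron of Rb1, and Ccnd1 shares 1100 with LTO1. Ccnd2 shares 372 with Gm43126 and 368 with 9330179D12Rik, and Cdk6 shares 368 with Gm17590. Reads over those bases cannot be told apart between the partners if strand was not used. Ccne1, Cdkn1b and Cdkn2d share none.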

How the data were processed

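Per the labels' protocols, each library started from 8 ng of RNA and a strand-preserving pico-input kit. The authors deposited whole-number read counts per gene, 1 column per library, beside a gene length in bases whose annotation is not given in the sources used here. The submitters' processing notes name build mm10 and, without roles, DESeq2 1.18.1, featureCounts, STAR and bcl2fastq. The strand setting and the treatment of reads with several matches are not given in the sources used here. Per the labels the 3 libraries are repeats of the experiment, each on pooled nodes. P-values therefore reflect the spread among these samples alone, part of which may be technical.

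The counts were used as deposited. CPM used TMM factors of 1.04, 1.01 and 0.950 (edgeR 4.0.16). A count of 0 allows up to 3 counts, or 0.317, 0.214 and 0.228 CPM, which like the intervals covers counting error only. The 15490 genes with at least 10 counts in sum were tested against 1 CPM, 50 CPM and 10 CPM per kilobase with edgeR's quasi-likelihood F test (intercept alone, reference level in the offset, two-sided), with Benjamini-Hochberg adjustment over all of them and a threshold of 0.05. The null model, which has no free coefficient, was computed from the fit's own deviances. The test was checked on simulated data. The 8 gene pairs were compared by exact sign-flip tests on log2((CPM + 0.5) per kilobase). No pair of libraries agreed within sampling noise (chi-square 42.7 to 118 per degree of freedom). Alternatives used DESeq2 1.42.0, limma 3.58.1, other scalings, filters and lengths, and leaving out each replicate. The rule for named genes takes all members, any gene of the lists on the cell cycle, and the 3 genes nearest in level to the most abundant and the most uneven member. The value of 1 listed gene is not reported here. The members and lists were chosen with earlier results of these data known. Gene coordinates are those of RefSeq genes (GRCm38.p6).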

Additional observations from a re-analysis of the deposited data

How the results depend on the processing

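The calls of Ccnd2, Ccnd3, Cdkn1b and Rb1 above 50 CPM and above 10 CPM per kilobase held under every alternative run, and the 8 mean pair differences kept their direction. The number of members below 10 CPM per kilobase, 2 as reported, was 1 with library totals alone, 1 with mitochondrial genes left out, 4 with GENCODE M21 exon lengths, and 1 to 3 when each replicate was left out. Cdk4 against 50 CPM, never separated from it, changed sign with mitochondrial genes left out (log2 0.08) and without replicate 3 (0.02), in a range of -0.22 to 0.02 as each replicate was left out. Cdk6 against 10 CPM per kilobase changed sign without replicate 2 (log2 -0.02, in a range of -0.02 to 0.46) and with GENCODE M21 exon lengths (-2.24). With edgeR's own expression filter, which tests fewer genes and drops Ccne2, the genes below 50 CPM numbered 6164 and those below 10 CPM per kilobase 3812, against 10329 and 5811. Leaving out each replicate gave 5479 to 10579 and 2204 to 5877, with the lowest of each without replicate 3, 1 to 3 members at 2-fold or more between libraries, and 2633 to 5487 of all genes. Beyond fewer genes or samples, the cause was not tested. No paired analysis was possible because the libraries form 1 group. Depth limits Ccne2 most, with 5 counts in replicate 2.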
